A study of Arabidopsis thaliana with 12 samples.

Results

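Pistils and young siliques of the Arabidopsis thaliana mutant ful-1 were set against those of wild-type Landsberg erecta (Ler), the ecotype the labels give for both groups. Of the 12 RNA-seq libraries of the series, 6 were used, chosen by genotype and tissue: 3 from ful-1 and 3 from Ler, each a pool of about 20 organs at floral stages 12 to 16. The other 6 libraries came from inflorescence meristems and are not described. Plants of both genotypes were grown untreated on rockwool at 21 °C with 16 h light and 8 h dark. The labels name ful-1 as the genotype and give neither the nature of the allele nor whether the replicates came from separate plantings, so each p-value reflects how far these particular samples vary, which may be technical.

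FRUITFULL (FUL, AT5G60910, annotated as AGL8) is a MADS-domain transcription factor expressed in the valves, the seedpod walls of the fruit. It is known to keep the valve margin genes INDEHISCENT (IND), SHATTERPROOF 1 and 2 (SHP1 and SHP2) and ALCATRAZ (ALC) out of the valves, and fruits without it stay short because their valve cells fail to expand. Valves are green and carry stomata in their epidermis, while the ovules and seeds inside come from the placenta, so a whole pistil mixes tissues that FUL marks and tissues that it does not.

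Counts totalled 38215149, 27545430 and 13191949 in ful-1 libraries 1 to 3 and 30528403 to 34276079 in the Ler libraries. Library 3 of ful-1, which has the lowest total of the 6, stood apart. Over the genes tested its Spearman rho with the other pistil libraries was 0.814 to 0.829, against 0.970 to 0.993 among those 5. Ribosomal RNA genes made up 3.68% of it and 0.237% to 1.09% of the others, and it detected 25582 genes, where the others detected 29585 to 30415. Each comparison was therefore made over all 6 libraries and over 5, without library 3. The tissue label was checked on 6 carpel genes. AG, STK, SHP1, SHP2 and SPT had at least 20 CPM (counts scaled to a common library size) in every library, and CRC, a gene of the early carpel and nectary, had 6.91, 7.13 and 9.24 CPM in ful-1 and 9.74, 8.36 and 3.08 CPM in Ler. The summed level of 20 pollen markers was 981, 790 and 1634 CPM in ful-1 and 2228, 758 and 1423 CPM in Ler, and the ranges of the groups overlapped. That of 16 markers of the tapetum and the early anther was 159, 130 and 105 CPM in ful-1 and 82.5, 93.9 and 104 CPM in Ler, of which 0 to 6 markers were at 0 in a library. The part of either tissue in the results was not tested.

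FUL itself had 8.48, 9.49 and 2.89 CPM in ful-1 and 103, 106 and 95.6 CPM in Ler, and the groups did not overlap. Its log2 fold change over 5 libraries was -3.50 ± 0.11 (SE; adjusted p = 0.00015 by edgeR's quasi-likelihood test with Benjamini-Hochberg adjustment, used throughout), and over 6 libraries it was -3.84 ± 0.47 (SE) and did not pass (adjusted p = 0.063 by edgeR).

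Most of the difference between the genotypes was made of small changes. Over 5 libraries 3221 of 24068 genes passed an adjusted p of 0.05 (13.4%): 1233 were higher in ful-1 (5.12%) and 1988 lower (8.26%), and a gene past this threshold is said here to have risen or fallen. The median size of the log2 fold change was 0.752 among genes that rose and 0.744 among genes that fell, and 873 (70.8%) and 1392 (70.0%) of them changed less than a doubling or halving. Only 49 rose and 50 fell by more than 3 on the log2 scale. Over 6 libraries 44 of 23674 genes passed (0.186%), 20 higher (0.0845%) and 24 lower (0.101%), with a median size of 3.86 among the genes that rose and 3.44 among those that fell, and a log2 fold change of at least 1 in each. The biological coefficient of variation, the spread between libraries of a group that counting error does not give, was 0.413 over 6 libraries and 0.157 over 5. Unadjusted p-values under 0.05 numbered 2429 over 6 libraries and 7428 over 5, and DESeq2 called 927 and 4352 genes. From the 5 libraries, leaving out ful-1 library 1 gave 528 calls and ful-1 library 2 gave 913, each with a single ful-1 library taken to vary like the Ler libraries, while leaving out Ler library 1 gave 1118, Ler library 2 3727 and Ler library 3 2218.

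**Figure D1:**
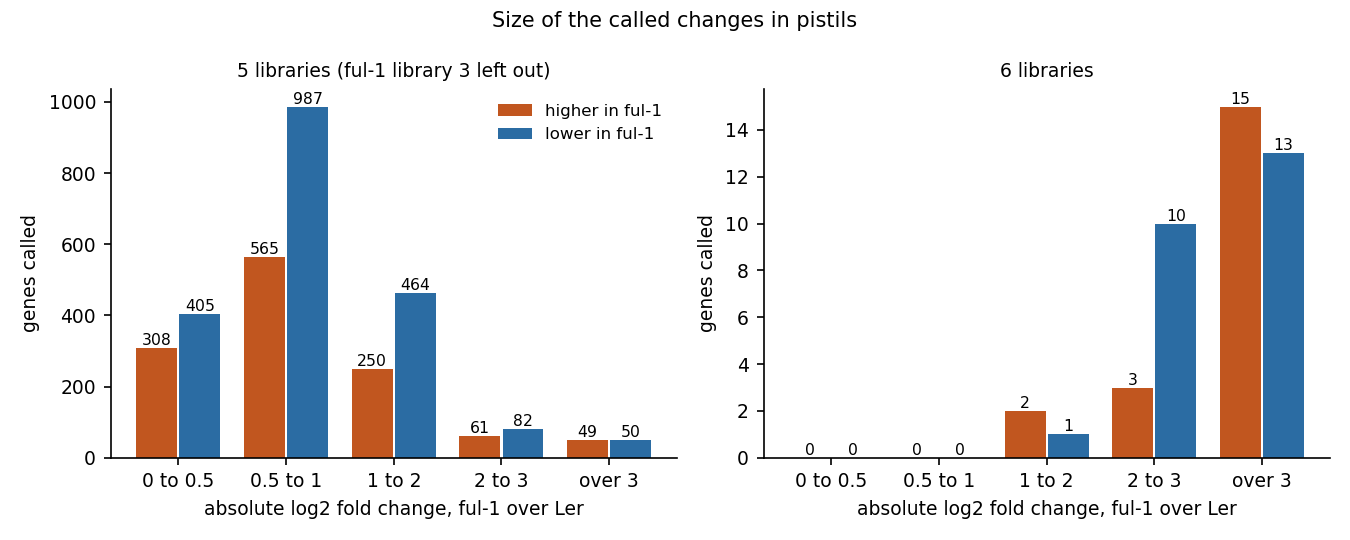
Number of genes called (vertical axis) by the absolute log2 fold change of ful-1 over Ler (horizontal axis), separately for genes higher and lower in ful-1, over 5 libraries on the left and over 6 on the right. Over 5 libraries the bars for 0.5 to 1 were the tallest, with 565 genes higher and 987 lower, and over 6 libraries 15 of 20 genes higher and 13 of 24 lower lay above 3.

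Genes that fell were most numerous among the abundant ones. In the quintile of genes with the highest mean levels, 45.6 to 5760.0 CPM, 804 fell and 264 rose, whereas in the lowest quintile 149 fell and 147 rose. By annotated type, 1141 protein-coding genes rose and 1856 fell of 21871 tested, and 39 long non-coding RNA genes rose and 81 fell of 1203. Pseudogenes went the other way, with 33 higher and 16 lower of 344. The share called was similar on the 5 chromosomes, 4.63% to 5.81% higher and 7.46% to 9.17% lower, and within 1 Mb of FUL 40 genes rose and 29 fell of 544.

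Library 3 was used in no call over 5 libraries, and its values are given beside the members described below. It lay above the highest Ler library in 719 of the 1233 genes that rose (58.3%), against 41.7% of all genes tested, and below the lowest Ler library in 1295 of the 1988 that fell (65.1%), against 47.8%. The same Ler libraries stand in both values, so these shares describe library 3 and are not an independent test. Among larger changes, of more than 2 on the log2 scale, library 3 lay on the same side in 80.9% of genes that rose and 84.1% of genes that fell. Among changes of up to 0.5 it did so in 49.0% and 54.6%.

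The level of a gene in library 3 moved with the gene's length. Relative to the mean of ful-1 libraries 1 and 2, library 3 had a median log2 ratio of 0.368 for genes with 29 to 981 bases of exon, 0.00809 for genes with 1452 to 1891 bases and -0.732 for genes with 2507 to 16614 bases. The ratio of library 2 to library 1 had medians of -0.017 to 0.0147 in the same groups. Genes that fell over 5 libraries were below all Ler libraries in library 3 in 47.3% of the shortest quintile and in 86.8% of the longest, where all genes tested gave 36.2% and 69.8%. The part of RNA quality in this relation was not tested.

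**Figure D2:**
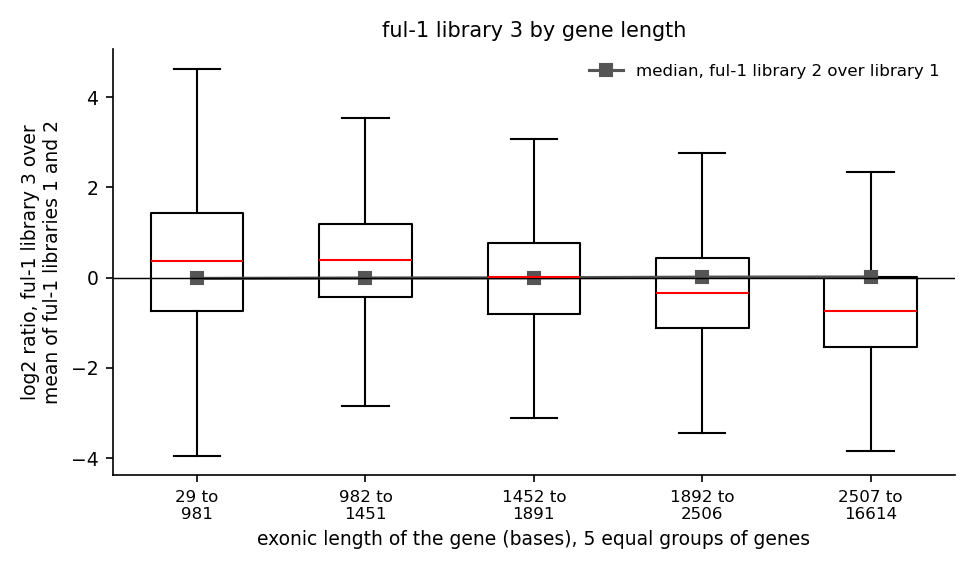
Log2 ratio of ful-1 library 3 to the mean of ful-1 libraries 1 and 2 (vertical axis; box from the lower to the upper quartile of genes, red line the median) for 5 equal groups of genes by exonic length in bases (horizontal axis); grey squares give the median of library 2 over library 1. The red medians run down to -0.732 in the longest genes, while the grey squares stay between -0.017 and 0.0147.

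Part of the genes that pattern the fruit and the carpel margin rose. Of 22 tested genes of this list, 8 rose over 5 libraries (36.4%, against 5.12% of all genes). The median log2 fold change was 0.421, against 0.00766 over all genes. The 8 were IND, SHP1, SHP2, ALC, SPT, AP2, NST1 and HEC3, and library 3 lay above all Ler libraries in 5 of them. Over 6 libraries the list's median was 0.219 and IND was its 1 call. Without ful-1 library 1 the count was 4, without ful-1 library 2 it was 4, and without Ler library 1 it was 5.

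SHP1, a MADS-domain factor of the valve margin and the ovule, had 222, 226 and 121 CPM in ful-1 and 81.8, 73.0 and 89.0 CPM in Ler. Every ful-1 library lay above every Ler library, and the log2 fold change was 1.46 ± 0.10 (SE, adjusted p = 0.0022 by edgeR). Its close relative SHP2 had 126, 133 and 113 CPM in ful-1 and 63.9, 75.2 and 60.2 CPM in Ler, again without overlap, and rose by 0.96 ± 0.12 on the log2 scale (SE, adjusted p = 0.0061 by edgeR). The call for SHP2 was lost without ful-1 library 1 or ful-1 library 2, and 56.7% of its exons overlap AT2G42835 on the other strand, whose reads the counts did not separate. SPATULA (SPT), a bHLH factor of the carpel margin and transmitting tract, had 48.4, 55.9 and 29.0 CPM in ful-1 and 21.2, 22.7 and 21.3 CPM in Ler, with no overlap, and rose by 1.26 ± 0.09 (SE, adjusted p = 0.0023 by edgeR). ALC, a bHLH factor of the separation layer, had 147 and 154 CPM in ful-1 libraries 1 and 2 and 67.1 to 93.0 CPM in Ler, while library 3, at 76.2 CPM, lay within the Ler range. HEC3, a bHLH partner of SPT, had 5.41, 5.37 and 3.70 CPM in ful-1 and 2.61, 2.63 and 1.65 CPM in Ler (1.23 ± 0.23 SE, adjusted p = 0.024 by edgeR). That call was lost without ful-1 library 1, ful-1 library 2 or Ler library 1. ALC and NST1 were chosen after their values were seen, as members called beyond those the naming rule takes.

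APETALA2 (AP2), which restrains the growth of the valve margin and replum, had 89.3 and 115 CPM in ful-1 libraries 1 and 2, 19.6 CPM in library 3 and 43.9, 52.3 and 42.0 CPM in Ler. The first 2 ful-1 libraries lay above Ler and the third below it, and the log2 fold change was 1.15 ± 0.15 over 5 libraries (SE, adjusted p = 0.0076 by edgeR) and 0.70 ± 0.59 over 6 (SE, adjusted p = 0.63 by edgeR). Enzymes of cell separation made up a list of 7, of which 2 rose over 5 libraries (28.6%, against 5.12% of all genes). These were the polygalacturonase ADPG1 and the mannanase MAN7. MAN7 had 17.5, 18.0 and 19.4 CPM in ful-1 and 9.17, 11.9 and 10.09 CPM in Ler, and the groups did not overlap. Neither was called without ful-1 library 1, ful-1 library 2 or Ler library 1, and MAN7 not without Ler library 3.

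Some ovule and seed genes rose too. Of 24 tested genes of the ovule, the seed coat and the early seed, 7 rose over 5 libraries (29.2%, against 5.12% of all genes). The median log2 fold change was 0.846. Over 6 libraries the median was 0.611, edgeR called none, DESeq2 called 1 and 4 had an unadjusted edgeR p under 0.05. SEEDSTICK (STK), the MADS-domain factor of ovule identity, had 209, 230.1 and 161 CPM in ful-1 and 114, 137 and 120.3 CPM in Ler, and rose by 0.82 ± 0.11 (SE, adjusted p = 0.0083 by edgeR). INNER NO OUTER (INO), a YABBY factor of the outer integument, had 43.0, 42.2 and 109 CPM in ful-1 and 24.5, 24.0 and 19.9 CPM in Ler, and rose by 0.90 ± 0.11 (SE, adjusted p = 0.0063 by edgeR). In both genes all ful-1 libraries lay above all Ler libraries, but in BEL1, a homeodomain factor of the integuments, library 3 at 10.7 CPM lay below Ler while the other ful-1 libraries, at 32.0 and 35.5 CPM, lay above its 15.5 to 18.7 CPM. Library 3 was on the high side in 2 of the 7 genes, and its median log2 ratio to the other ful-1 libraries over the list was -1.12. In one fit with the meristem libraries INO did not pass (adjusted p = 0.066 by edgeR). The count was 1 without ful-1 library 1, where STK and INO lost their calls, 2 without ful-1 library 2, where STK lost it, 4 without Ler library 1 and 3 without Ler library 3. In a pool of whole pistils, more cells of a type and more RNA per cell cannot be told apart.

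All 15 tested genes of the female gametophyte, the embryo sac within the ovule, had a log2 fold change above 0 over 5 libraries, with a median of 1.02, and 1.30 over 6. Of these, 2 passed over 5 libraries (13.3%, against the 5.12% of all genes that rose). They were EC1.4, a peptide secreted by the egg cell, and LURE1.1, a pollen tube attractant of the synergid cells. EC1.4 had 10.9, 9.11 and 15.5 CPM in ful-1 and 5.99, 6.31 and 6.70 CPM in Ler, and every ful-1 library was the higher. The summed level of the 15 markers was nevertheless 384, 336 and 225 CPM in ful-1 and 262, 275 and 316 CPM in Ler, which overlap. EC1.4 kept its call only without Ler library 2 and LURE1.1 only without ful-1 library 2. The count moved to 0 without ful-1 library 1, Ler library 1 or Ler library 3, 3 without ful-1 library 2 and 1 without Ler library 2.

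The class of small cysteine-rich peptides held genes that rose in all but 1 of its calls, and it includes defensins, egg cell peptides and many peptides of the pollen tube and the ovule. Of 277 listed genes 159 were expressed highly enough to be tested over 5 libraries, and 27 rose and 1 fell. These were 17.0% and 0.629%, against 5.12% and 8.26% of all genes. The median log2 fold change of the tested members was 0.901, against 0.00766 over all genes, and 147 of the 159 lay above 0. Library 3 lay above all Ler libraries in 20 of the 27. In the shortest quintile of all genes it did so in 53.3% of those tested and 72.7% of those that rose, so this share is not particular to the class. The summed level of the list was 1675, 1232 and 2005 CPM in ful-1 and 1185, 1112 and 1162 CPM in Ler, without overlap. LCR45 had 8.93, 7.96 and 5.43 CPM in ful-1 and 3.66, 3.098 and 4.63 CPM in Ler, and LCR8 had 2.29, 2.396 and 2.77 CPM in ful-1 and 1.05, 1.08 and 1.23 CPM in Ler. The number that rose was 0 without ful-1 library 1, 0 without Ler library 1, 26 without ful-1 library 2 and 15 without Ler library 2, where 3 fell, and LCR45 and LCR8 lost their calls without ful-1 library 1, ful-1 library 2 or Ler library 1. DESeq2 called 61 higher over the same 5 libraries.

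Among MADS-box genes of flower and fruit, 7 of 28 tested rose and 3 fell over 5 libraries, against 5.12% and 8.26% of all genes. FUL itself was among the 3 that fell, and the share that fell was near that over all genes even with FUL counted. Of those that rose, SHP1, SHP2 and STK were already counted in the fruit or ovule lists above. Besides SHP1, SHP2 and STK, AP3, the petal and stamen gene, had 38.3 and 44.6 CPM in ful-1 libraries 1 and 2, 8.32 CPM in library 3 and 22.8, 23.4 and 21.6 CPM in Ler. Its log2 fold change was 0.87 ± 0.10 over 5 libraries (SE, adjusted p = 0.0045 by edgeR). Its partner PI had 6.51, 7.83 and 25.2 CPM in ful-1 and 13.1, 5.29 and 4.71 CPM in Ler and did not pass. On the other side, SEPALLATA 4 (SEP4) had 2.90, 3.93 and 0.809 CPM in ful-1 and 9.97, 10.8 and 9.0 CPM in Ler, and fell by 1.55 ± 0.18 on the log2 scale (SE, adjusted p = 0.0055 by edgeR). MAF5, a relative of the flowering repressor FLC, had 1.95, 2.62 and 1.85 CPM in ful-1 and 11.8, 12.1 and 10.5 CPM in Ler, without overlap. The number of MADS-box genes that rose was 2 without ful-1 library 1, 2 without ful-1 library 2 and 4 without Ler library 1.

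**Figure D3:**
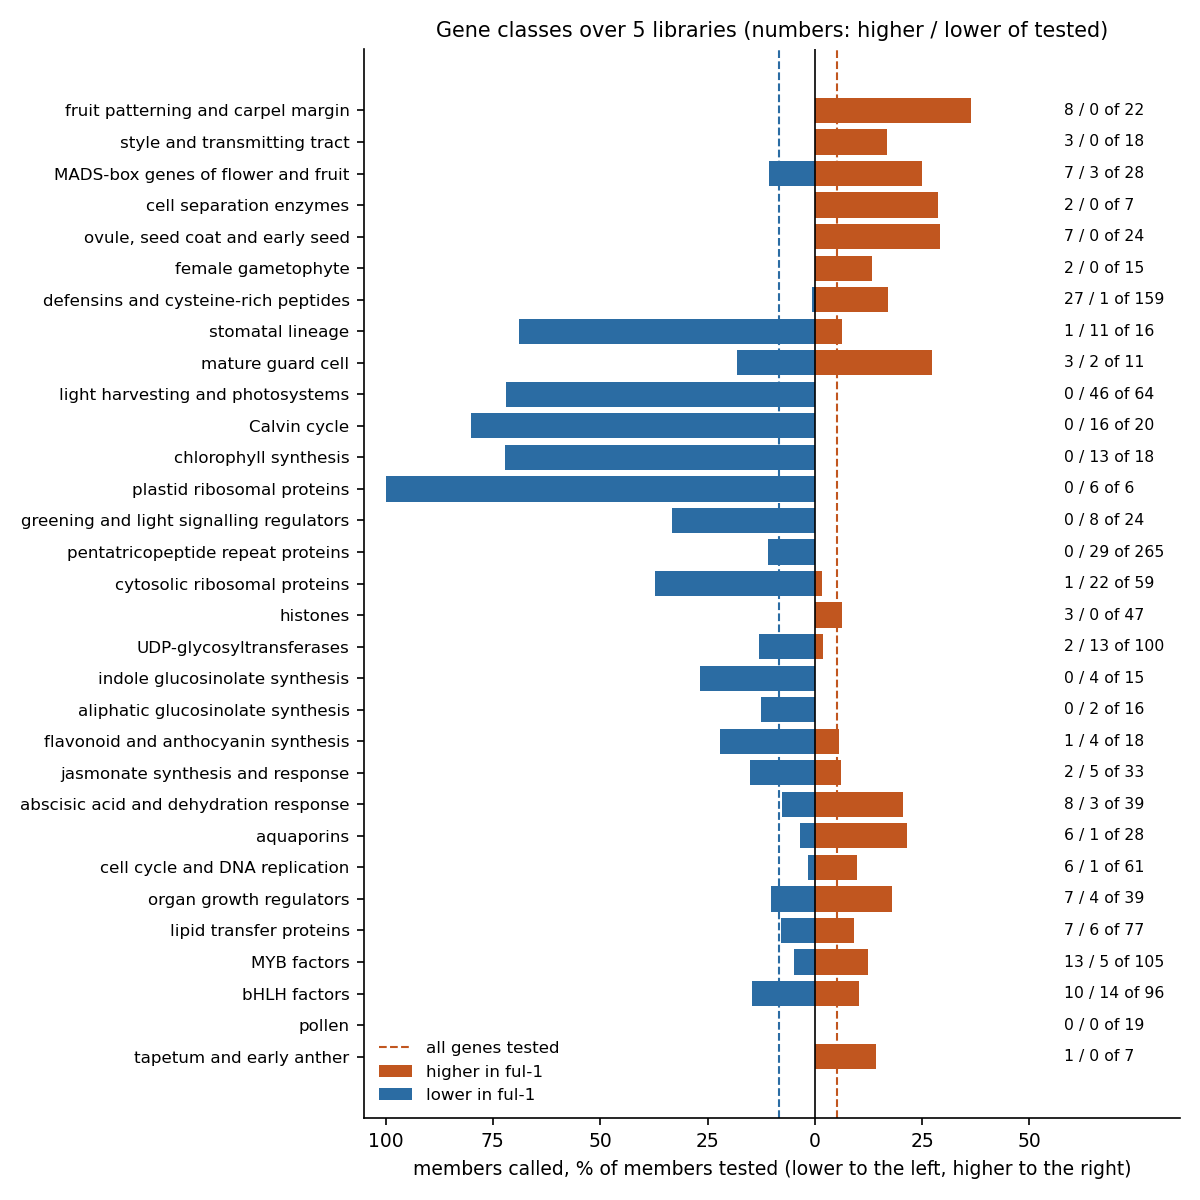
Share of the tested members of each gene class that were called over 5 libraries (horizontal axis, %; lower in ful-1 to the left, higher to the right), with the counts at the right; dashed lines give the shares over all genes tested, 5.12% higher and 8.26% lower. Photosynthesis and plastid classes extend only to the left, and fruit patterning, ovule and cysteine-rich peptide classes mainly to the right.

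Most of the listed nuclear genes of photosynthesis fell over 5 libraries. The change was less than a halving in 45 of the 46 photosystem genes that fell, 11 of the 16 of the Calvin cycle, 10 of the 13 of chlorophyll synthesis and 3 of the 6 for plastid ribosomal proteins. Of 64 tested nuclear genes for light harvesting and photosystem proteins 46 fell (71.9%). Their list had a median log2 fold change of -0.52 and a range among those called of -1.15 to -0.343. Of 20 Calvin cycle genes 16 fell (80.0%), with a median of -0.842. Of 18 genes of chlorophyll synthesis 13 fell (72.2%), with a median of -0.685. All 6 listed genes for plastid ribosomal proteins fell, with a median of -1.01. The share that fell was 8.26% over all genes and 16.7% in the quintile of genes with the highest mean levels. Of 265 pentatricopeptide repeat genes, whose products process organelle RNA, 29 fell (10.9%, against 8.26% of all genes), and the median was -0.176. Of the 70 genes tested that the plastid genome itself encodes 9 fell (12.9%), with a median of -0.724 over 5 libraries, whereas over 6 libraries the median was 0.701. Plastid genes held 0.118%, 0.364% and 2.04% of the counts in ful-1 and 0.189% to 0.393% in Ler, so library 3 had the highest share, and the part of that share in these values was not tested.

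PPD5, a lumenal protein of the PsbP family, had 52.1, 55.2 and 92.8 CPM in ful-1 and 103, 100.2 and 101 CPM in Ler, and every ful-1 library was the lower. RBCS3B, a small subunit of Rubisco, had 586, 708 and 666 CPM in ful-1 and 1533, 1694 and 1593 CPM in Ler, and fell by 1.31 ± 0.13 on the log2 scale (SE, adjusted p = 0.0033 by edgeR). CP12-2, which binds 2 Calvin cycle enzymes together in the dark, had 11.1, 9.65 and 25.2 CPM in ful-1 and 34.3, 31.8 and 37.7 CPM in Ler, without overlap. G4, the chlorophyll synthase, had 60.2, 67.6 and 59.0 CPM in ful-1 and 133, 119.8 and 136 CPM in Ler, and fell by 1.02 ± 0.10 (SE, adjusted p = 0.0032 by edgeR). PRPL11, a protein of the plastid ribosome, had 84.8, 94.3 and 103 CPM in ful-1 and 198, 188 and 199 CPM in Ler, again without overlap. The pentatricopeptide repeat gene SVR7 had 39.4, 44.0 and 15.4 CPM in ful-1 and 84.5, 90.1 and 84.7 CPM in Ler, and fell by 1.05 ± 0.09 (SE, adjusted p = 0.0027 by edgeR).

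Library 3 did not share this pattern throughout. It lay below all Ler libraries in 14 of the 46 photosystem genes that fell. For chlorophyll genes this was 5 of 13 and for plastid ribosomal genes 3 of 6. For Calvin cycle genes it was 14 of 16, and for pentatricopeptide repeat genes 23 of 29. Over all genes that fell this share was 47.3% in the shortest quintile and 86.8% in the longest. Gene length was not compared between these lists. The summed level of the photosystem list was 24509, 26939 and 102040 CPM in ful-1 and 36692, 36943 and 38082 CPM in Ler. Libraries 1 and 2 of ful-1 lay below Ler and library 3 far above it. A single light-harvesting gene carried part of that: CAB1, chosen after its values were seen, had 3855, 4008 and 30575 CPM in ful-1 and 6185, 5946 and 6746 CPM in Ler. Hydroxymethylbilane synthase (HEMC), an early enzyme of tetrapyrrole synthesis, had 128 and 149 CPM in ful-1 libraries 1 and 2 and 366 CPM in library 3, on either side of the 278 to 304 CPM in Ler. Over 6 libraries the medians were -0.142 for photosystem genes, -0.884 for the Calvin cycle, -0.424 for chlorophyll synthesis and -0.429 for plastid ribosomal proteins. Unadjusted edgeR p-values under 0.05 were given by 7, 10, 2 and 2 members of these lists over 6 libraries, and adjusted ones by none.

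The counts for photosynthesis changed with the library left out of the 5 more than the medians did. Leaving out Ler library 2 gave 43 photosystem genes lower. Without ful-1 library 1 there were 2 photosystem genes lower, without ful-1 library 2 there were 5, without Ler library 1 there were 11 and without Ler library 3 there were 29, while the median lay between -0.593 and -0.475. For the Calvin cycle the count was 6 without ful-1 library 1 and 9 without ful-1 library 2. For chlorophyll synthesis it was 4 without ful-1 library 1, 6 without ful-1 library 2 and 8 without Ler library 1. For plastid ribosomal proteins it was 4 without ful-1 library 1. For pentatricopeptide repeat genes it was 2, 3 and 8 without ful-1 library 1, ful-1 library 2 and Ler library 1.

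**Figure D4:**
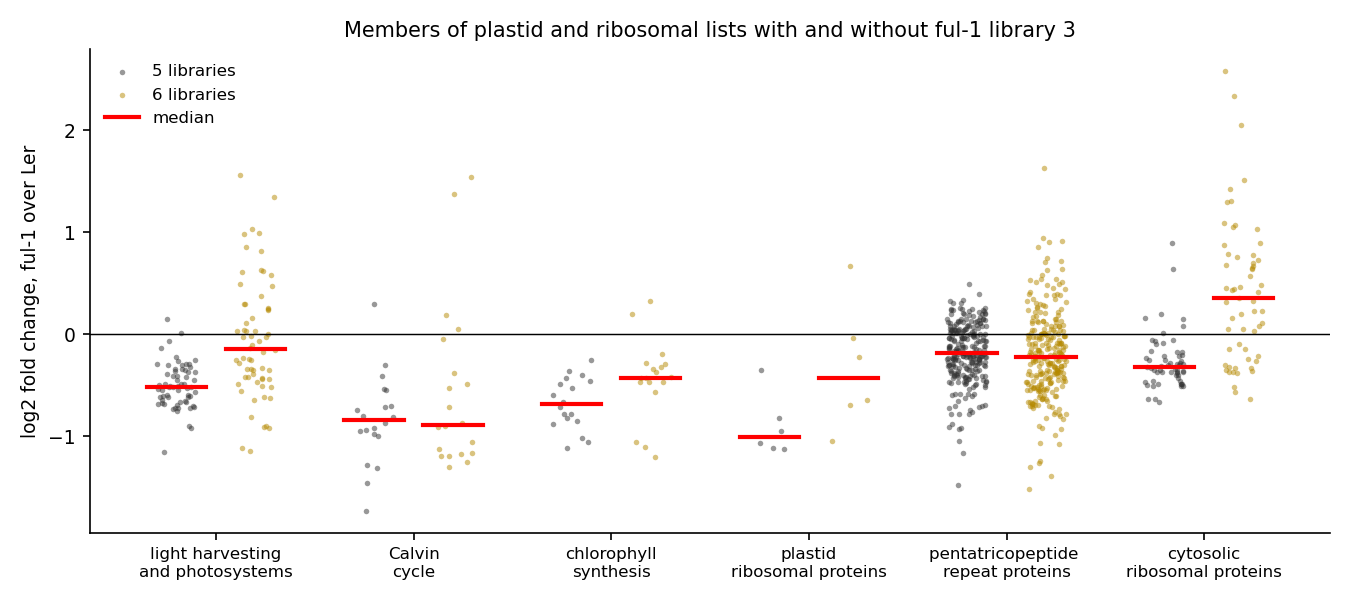
Log2 fold change of ful-1 over Ler (vertical axis) for the tested members of each plastid and ribosomal list (horizontal axis), over 5 libraries in grey and over 6 in ochre; red bars mark medians. The photosystem median is -0.52 over 5 libraries and -0.142 over 6, and that of cytosolic ribosomal proteins is -0.319 over 5 and 0.363 over 6.

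Some regulators of greening fell as well. Of 24 tested regulators of greening and light signalling 8 fell over 5 libraries (33.3%, against 8.26% of all genes). The median log2 fold change over the list was -0.28. Library 3 lay below all Ler libraries in 7 of the 8, and 2, CGA1 and PKS2, were also called over 6 libraries. SIG2, a sigma factor of the plastid RNA polymerase, had 42.4, 46.1 and 6.12 CPM in ful-1 and 81.5, 82.5 and 80.0 CPM in Ler, and fell by 0.88 ± 0.08 on the log2 scale (SE, adjusted p = 0.0029 by edgeR). PIF4, a bHLH factor that phytochrome inactivates, had 4.15, 3.13 and 0.924 CPM in ful-1 and 9.01, 8.36 and 10.2 CPM in Ler. The GATA factor CGA1, which like its relative GNC promotes chloroplast development, had 0.382, 0.511 and 0.347 CPM in ful-1 and 7.20, 7.16 and 8.64 CPM in Ler, without overlap, and GNC was also among the 8. GPRI1, also known as GLK1, an activator of chlorophyll and light-harvesting genes, had 2.85, 3.77 and 0.462 CPM in ful-1 and 7.74, 11.7 and 6.11 CPM in Ler, and its call was near the threshold (-1.37 ± 0.32 SE, adjusted p = 0.043 by edgeR). CGA1, PKS2, GNC and GPRI1 were chosen after their values were seen. The count was 5 without ful-1 library 1, ful-1 library 2 or Ler library 1.

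The 16 genes that the naming rule took for moderate change (in each direction the 8 of lowest p over 5 libraries, among genes with a log2 size of 0.5 to 2, a mean of 10 CPM or more in 1 group and separate groups) had adjusted p-values of 0.0014 to 0.0023 over 5 libraries and 0.044 to 0.81 over 6 by edgeR. Each kept its call when any 1 of the 5 libraries was left out. Of the 8 that fell, 5 are known for plastid or peroxisome functions tied to photosynthesis: TRX z and FSD2, associated with the plastid RNA polymerase, GLU1 of photorespiratory ammonium assimilation, and the peroxisomal enzymes CAT2 and PMDH2. The set was picked by low p and separate groups over these 5 libraries. So this share, the kept calls and the separation of ful-1 libraries 1 and 2 from Ler carry no test.

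GLU1, the ferredoxin-dependent glutamate synthase, had 75.3, 82.3 and 27.3 CPM in ful-1 and 261, 293 and 292 CPM in Ler. All ful-1 libraries lay far below Ler, and the log2 fold change was -1.84 ± 0.10 (SE, adjusted p = 0.0017 by edgeR). GS2, the plastid glutamine synthetase of the same cycle, had 269, 302 and 358 CPM in ful-1 and 578, 579.6 and 594 CPM in Ler, and fell by 1.03 ± 0.09 (SE, adjusted p = 0.0029 by edgeR). CAT2, the catalase that removes photorespiratory hydrogen peroxide, had 26.4, 25.1 and 18.3 CPM in ful-1 and 71.9, 75.2 and 76.6 CPM in Ler, without overlap. PMDH2, a peroxisomal malate dehydrogenase, had 51.6, 54.9 and 34.4 CPM in ful-1 and 132, 128 and 133 CPM in Ler, and also did not overlap. TRX z had 25.7 and 27.3 CPM in ful-1 libraries 1 and 2, 107 CPM in library 3 and 71.0, 68.5 and 72.3 CPM in Ler. Library 3 thus lay above Ler for TRX z, and within its range for FSD2, with 15.5, 14.4 and 39.6 CPM in ful-1 and 42.0, 39.3 and 42.0 CPM in Ler.

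The other 3 of the 8 that fell were P5CS1, CXIP2 and AGG3. P5CS1, the rate-limiting enzyme of proline synthesis, had 39.7, 43.0 and 29.5 CPM in ful-1 and 126, 118 and 119.9 CPM in Ler, and fell by 1.55 ± 0.08 (SE, adjusted p = 0.0014 by edgeR). CXIP2, a glutaredoxin of the chloroplast, had 12.4, 13.8 and 17.6 CPM in ful-1 and 42.1, 41.0 and 46.8 CPM in Ler. AGG3, a gamma subunit of heterotrimeric G proteins that promotes organ growth, had 6.44, 6.58 and 3.47 CPM in ful-1 and 20.16, 18.8 and 19.1 CPM in Ler. In all 3 genes the groups did not overlap.

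Of the 8 that rose, SHP1 was one. AT2G47630, annotated as an alpha/beta hydrolase, had 72.6, 72.0 and 76.0 CPM in ful-1 and 22.6, 19.1 and 24.3 CPM in Ler, and was the 1 gene of the 16 also called over 6 libraries (1.74 ± 0.19 SE, adjusted p = 0.044 by edgeR). AT3G11000, a DCD-domain protein, had 105, 96.2 and 105 CPM in ful-1 and 45.8, 44.1 and 45.1 CPM in Ler, and AT2G32280, of the DUF1218 family, had 17.5, 16.6 and 23.3 CPM in ful-1 and 6.56, 6.43 and 6.39 CPM in Ler. Neither overlapped. The bHLH factor bHLH071 had 32.7 and 34.0 CPM in ful-1 libraries 1 and 2 but 8.89 CPM in library 3, just below the 9.48 to 12.0 CPM in Ler. AT5G23110 and AT1G48090, with 14494 and 13296 bases of exon, split in the same way, with 62.7, 55.8 and 5.43 CPM (AT5G23110) and 169.9, 161 and 9.82 CPM (AT1G48090) in ful-1, against 22.9 to 25.5 and 78.4 to 83.2 CPM in Ler.

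**Figure D5:**
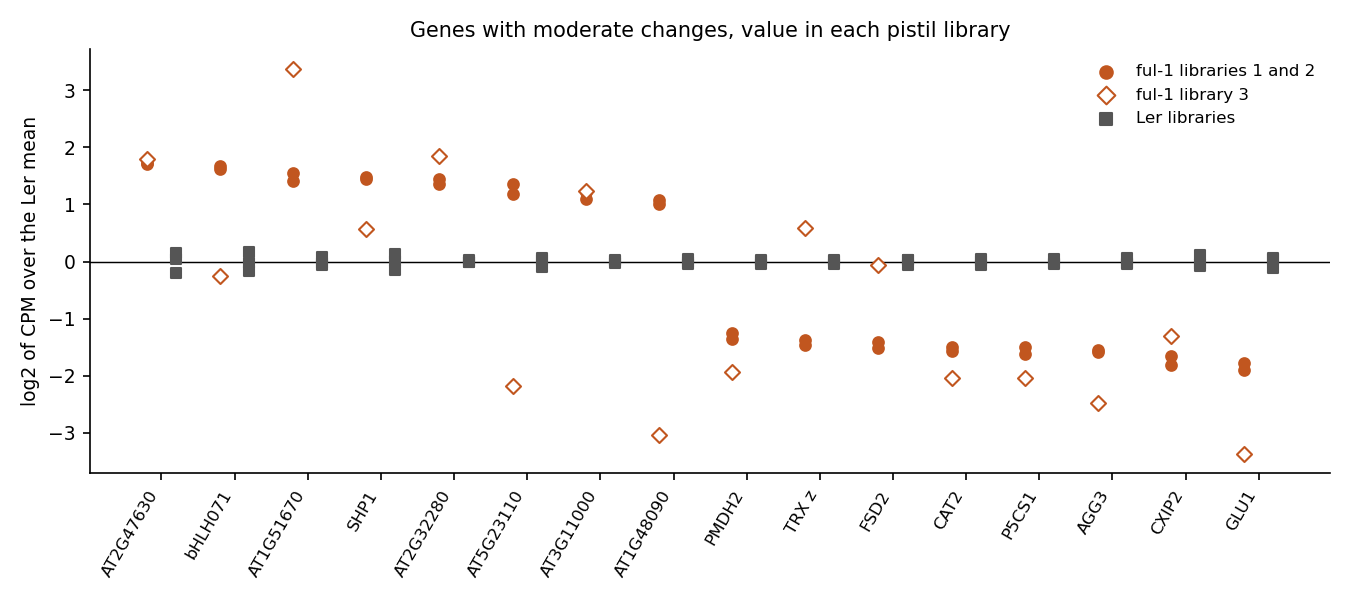
Level of the 16 genes of moderate change in each pistil library, as log2 of CPM over the Ler mean (vertical axis); filled circles are ful-1 libraries 1 and 2, open diamonds ful-1 library 3 and grey squares the Ler libraries. Library 3 sits on the same side of Ler as its mates in 11 of the 16 genes.

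Cytosolic ribosomal protein genes set library 3 against the other ful-1 libraries. Of 59 tested cytosolic ribosomal protein genes 22 fell and 1 rose over 5 libraries (37.3% and 1.69%, against 8.26% and 5.12% of all genes). The median log2 fold change was -0.319, while over 6 libraries the median was 0.363. The summed level was 11528, 11487 and 40639 CPM in ful-1 and 15548, 15440 and 13837 CPM in Ler. AT3G02560, a ribosomal S7e protein gene, had 163, 159 and 1226 CPM in ful-1 and 256, 242 and 248 CPM in Ler. The number lower was 0 without ful-1 library 1, 0 without ful-1 library 2, 2 without Ler library 1 and 12 without Ler library 2. Of 47 histone genes 3 rose over 5 libraries (6.38%, near the 5.12% of all genes), with a median of 0.147 (0.607 over 6 libraries). Library 3 lay above all Ler libraries in each of the 3. The number was 0 without ful-1 library 1, ful-1 library 2 or Ler library 1, and 1 without Ler library 2 or Ler library 3. Over the list library 3 had a median log2 ratio of 1.16 to the other ful-1 libraries. AT4G40040, a histone gene, had 545, 503 and 1420 CPM in ful-1 and 398, 384 and 416 CPM in Ler, and its call was lost when any 1 of the 5 libraries was left out.

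Most listed genes of the stomatal lineage fell. Of 16 tested members 11 fell and 1 rose over 5 libraries (68.8% and 6.25%, against 8.26% and 5.12% of all genes). The share that rose was thus near that over all genes. The median log2 fold change was -2.30 (-1.66 over 6 libraries, with FAMA and POLAR called). Library 3 lay below all Ler libraries in 9 of the 11. The count was 7 without ful-1 library 1 and 8 without ful-1 library 2.

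The list spans the successive steps of the lineage, and members of each fell. SPEECHLESS (SPCH), the bHLH factor of entry into the lineage, had 1.01, 0.671 and 0.116 CPM in ful-1 and 5.16, 8.27 and 5.05 CPM in Ler. MUTE, which ends the divisions of the meristemoid, had 0.067, 0.064 and 0.347 CPM in ful-1 and 3.41, 3.098 and 2.86 CPM in Ler. The groups did not overlap in either gene. TOO MANY MOUTHS (TMM), a receptor that spaces stomata, had 3.32, 3.58 and 8.20 CPM in ful-1 and 22.6, 27.4 and 18.6 CPM in Ler. STOMAGEN, a peptide from inner tissue that raises stomatal density, had 3.52, 3.23 and 5.43 CPM in ful-1 and 10.6, 9.09 and 10.7 CPM in Ler, and fell by 1.58 ± 0.14 (SE, adjusted p = 0.0028 by edgeR). SCRM2, a bHLH partner of these factors, fell by 1.08 ± 0.10 (SE, adjusted p = 0.0029 by edgeR), with 32.4, 27.5 and 69.4 CPM in ful-1 and 62.9, 64.0 and 63.3 CPM in Ler, so library 3 lay above Ler. The 1 member that rose was ERL1, a receptor kinase expressed well beyond the lineage, and its call held only without Ler library 2. SPCH, MUTE and TMM were chosen after their values were seen.

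Markers of mature guard cells went both ways. Of 11 tested, 3 rose and 2 fell over 5 libraries (27.3% and 18.2%, against 5.12% and 8.26% of all genes). Library 3 lay on the same side of Ler as its mates in each of the 5. KAT1, a potassium channel, had 20.0, 35.1 and 10.9 CPM in ful-1 and 4.87, 7.39 and 4.29 CPM in Ler. OST1, the kinase of abscisic acid signalling in guard cells, had 17.6, 24.0 and 35.7 CPM in ful-1 and 10.3, 9.65 and 9.0 CPM in Ler, and rose by 1.1 ± 0.15 (SE, adjusted p = 0.009 by edgeR). The third, the MYB factor MYB60, had 3.75, 4.41 and 3.47 CPM in ful-1 and 2.29, 2.25 and 2.78 CPM in Ler. Its call was near the threshold (0.74 ± 0.18 SE, adjusted p = 0.046 by edgeR), and was lost when any 1 of the 5 libraries was left out, with no filter on low counts and in one fit with the meristem libraries. In all of these genes each ful-1 library lay above each Ler library. The 2 that fell were the myrosinases TGG1 and TGG2, which guard cells and phloem idioblasts hold. TGG1 had 286, 241 and 38.6 CPM in ful-1 and 2245, 2405 and 1838 CPM in Ler, and TGG2 had 3.75, 3.16 and 1.502 CPM in ful-1 and 32.0, 34.0 and 24.7 CPM in Ler. KAT1 and TGG1 were chosen after their values were seen. The number that rose was 1 without Ler library 1 and 2 without any other 1 of the 5 libraries. Outside this list, FLP, a MYB factor that limits the last division of guard mother cells, had 61.6, 83.5 and 36.0 CPM in ful-1 and 26.6, 27.8 and 24.1 CPM in Ler, without overlap.

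Among enzymes of defence compounds and conjugation, the genes that fell outnumbered those that rose, as they did over all genes tested. Of 100 tested UDP-glycosyltransferase genes 13 fell and 2 rose (13% and 2.0%, against 8.26% and 5.12% of all genes), although the median log2 fold change was 0.0115. AT3G55710 had 5.18, 5.78 and 5.08 CPM in ful-1 and 31.1, 34.2 and 34.0 CPM in Ler, and fell by 2.60 ± 0.10 (SE, adjusted p = 0.00045 by edgeR), with a call over 6 libraries as well. UGT73B1, which glycosylates flavonoids, went the other way with 131, 155 and 106 CPM in ful-1 and 62.4, 60.005 and 67.2 CPM in Ler. Of 15 genes of indole glucosinolate synthesis 4 fell, with a median of -0.599, among them ASA1 and TSB1 of tryptophan synthesis. TSB1 had 81.2, 75.5 and 35.5 CPM in ful-1 and 104, 104 and 99.3 CPM in Ler. Of 18 flavonoid and anthocyanin genes 4 fell and 1 rose; LDOX, the anthocyanidin synthase, had 34.1, 35.8 and 20.8 CPM in ful-1 and 101, 108 and 62.6 CPM in Ler, and shares a near-identical stretch with AT4G22870. Of 33 jasmonate genes 5 fell and 2 rose. Genes that fell made up 26.7% of the indole glucosinolate list, 22.2% of the flavonoid list and 15.2% of the jasmonate list, against 8.26% of all genes.

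Within the jasmonate list, the plastid lipoxygenase LOX2, which starts jasmonate synthesis, had 229, 289 and 180.3 CPM in ful-1 and 920.0, 1070 and 561 CPM in Ler. The repressor gene JAZ3 had 7.16, 7.99 and 6.58 CPM in ful-1 and 14.7, 12.8 and 13.6 CPM in Ler, and JAZ6 had 54.8, 50.2 and 6.70 CPM in ful-1 and 106, 97.2 and 90.1 CPM in Ler. None of these overlapped. Without ful-1 library 1 the numbers lower were 5 (glycosyltransferases), 0 (indole glucosinolates), 1 (flavonoids) and 1 (jasmonate). Without ful-1 library 2 they were 9, 0, 1 and 2, and without Ler library 1 they were 9, 1, 1 and 3. Without Ler library 2, 17 glycosyltransferase genes fell and 8 rose. LOX2, LDOX, ASA1 and TSB1 lost their calls in each of these, JAZ6 without ful-1 library 1 or 2, and JAZ3 without ful-1 library 1.

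Some genes of the response to abscisic acid and dehydration rose. Of 39 tested genes 8 rose and 3 fell over 5 libraries, with a median of 0.21. These were 20.5% and 7.69%, against 5.12% and 8.26% of all genes, so the share that fell was near that over all genes. ABF3, a bZIP factor that acts downstream of abscisic acid, had 34.1, 31.9 and 24.8 CPM in ful-1 and 17.2, 16.8 and 18.6 CPM in Ler, and rose by 0.91 ± 0.08 (SE, adjusted p = 0.003 by edgeR). KIN2, a cold- and abscisic acid-induced protein, had 452, 511 and 216 CPM in ful-1 and 205, 169.6 and 137 CPM in Ler. HB-7, a homeodomain factor induced by drought, had 22.6, 23.8 and 27.7 CPM in ful-1 and 13.8, 11.8 and 13.8 CPM in Ler. In each of these the groups did not overlap, and library 3 was on the high side in 6 of the 8. Among the 3 that fell were ABI1, a phosphatase that holds the pathway back, and NCED5, an enzyme of abscisic acid synthesis, both named after their values were seen. The number that rose was 4 without ful-1 library 1, 2 without ful-1 library 2 and 4 without Ler library 1, and the number that fell was 0, 1 and 0 in the same order. HB-7 lost its call without either ful-1 library.

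Genes of water transport and growth moved in both directions. Of 28 aquaporin genes 6 rose and 1 fell over 5 libraries (21.4% and 3.57%, against 5.12% and 8.26% of all genes). The 6 that rose encode channels of the plasma membrane: PIP1A had 209.5, 232 and 212 CPM in ful-1 and 146, 129 and 132 CPM in Ler, and PIP2;5 had 95.5, 123 and 133 CPM in ful-1 and 49.2, 56.5 and 39.4 CPM in Ler. The 1 that fell, GAMMA-TIP, is a channel of the vacuole membrane and had 134, 125 and 153 CPM in ful-1 and 359, 408 and 319 CPM in Ler (-1.48 ± 0.13 SE, adjusted p = 0.0029 by edgeR). The number that rose was 0 without ful-1 library 1, 2 without ful-1 library 2, 1 without Ler library 1 and 4 without Ler library 3, and 3 fell without Ler library 2. PIP1A and PIP2;5 lost their calls without either ful-1 library.

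Of 39 regulators of organ growth 7 rose and 4 fell (17.9% and 10.3%, against 5.12% and 8.26% of all genes). The share that fell was thus near that over all genes. The number that rose was 0 without ful-1 library 1, 1 without ful-1 library 2, 2 without Ler library 1 and 2 without Ler library 3, and the number that fell was 2, 1, 1 and 2 in the same order. BIG BROTHER (BB), which limits organ size, had 30.5, 31.6 and 21.6 CPM in ful-1 and 19.4, 18.7 and 17.9 CPM in Ler, and GRF6, a growth-regulating factor, had 5.93, 5.18 and 7.39 CPM in ful-1 and 2.102, 2.81 and 2.83 CPM in Ler. TCP10, of the class that moves cells out of division, had 19.0, 16.1 and 3.47 CPM in ful-1 and 39.1, 45.0 and 37.0 CPM in Ler, and fell by 1.2 ± 0.13 (SE, adjusted p = 0.0043 by edgeR). Of 61 genes of the cell cycle and DNA replication 6 rose and 1 fell (9.84% and 1.64%), with a median of 0.0648. The D-type cyclin CYCD3;3 had 59.8, 56.01 and 40.1 CPM in ful-1 and 35.3, 33.8 and 33.5 CPM in Ler. For the cell cycle the number that rose was 1 without ful-1 library 1, 1 without ful-1 library 2, 2 without Ler library 1 and 2 without Ler library 3. BB and CYCD3;3 lost their calls without ful-1 library 1, and GRF6 without ful-1 library 1, ful-1 library 2 or Ler library 1.

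Lipid transfer proteins, secreted mainly by the epidermis, had 7 of 77 tested members higher and 6 lower (9.09% and 7.79%, against 5.12% and 8.26% of all genes). The abundant LTP6 had 1911, 1687 and 2456 CPM in ful-1 and 675, 873 and 804 CPM in Ler, and LTP5 had 26.2, 25.2 and 22.6 CPM in ful-1 and 162, 100.5 and 154 CPM in Ler, and neither overlapped. The number that rose was 2 without ful-1 library 1, where LTP6 lost its call, 4 without Ler library 1 and 11 without Ler library 2. The number that fell was 1 without ful-1 library 1, 4 without ful-1 library 2 and 1 without Ler library 1.

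Set aside from the 44 genes called over 6 libraries were the 10 largest changes in each direction among genes that averaged 2 CPM or more in ful-1 or in Ler. In the other 24 (10 higher and 14 lower, SHN2 among them with a large change at a level under 2 CPM), library 3 lay on the same side of Ler as the other ful-1 libraries in every one, and their adjusted p-values were 0.01 to 0.047 over 6 libraries and 0.00045 to 0.0045 over 5 by edgeR. Each kept its call over 5 libraries when any 1 of those 5 was left out. The 24 were picked by the fit that holds library 3, so its side, the p-values and the kept calls are not an independent test. From the 6 libraries, leaving out Ler library 1, 2 or 3 or ful-1 library 1 left no gene called in the whole comparison. Leaving out ful-1 library 2 left 1 gene called.

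WRKY48, a WRKY factor, had 47.3, 65.3 and 58.9 CPM in ful-1 and 16.3, 16.1 and 13.4 CPM in Ler, and rose by 1.91 ± 0.22 over 6 libraries (SE, adjusted p = 0.047 by edgeR). AT3G62820, an inhibitor of invertase or pectin methylesterase, had 119.5, 222 and 193 CPM in ful-1 and 16.4, 19.6 and 13.04 CPM in Ler, and JP630, a BURP-domain protein, had 63.8, 96.6 and 61.0 CPM in ful-1 and 9.87, 11.7 and 11.9 CPM in Ler. The uncharacterized genes AT5G27902 and AT5G35575 share a near-identical stretch of 2678 bases at 98.9% identity, so their counts cannot be told apart: AT5G35575 had 12.4, 13.4 and 12.2 CPM in ful-1 and 1.56, 1.403 and 2.103 CPM in Ler. Of the genes that fell, RBP47C, an RNA-binding protein, had 17.2, 18.3 and 18.4 CPM in ful-1 and 56.6, 65.7 and 51.7 CPM in Ler, the smallest change of the 24 (-1.69 ± 0.19 SE, adjusted p = 0.047 by edgeR). PRE1, a small bHLH protein of gibberellin and brassinosteroid growth responses, had 3.41, 5.46 and 3.81 CPM in ful-1 and 27.6, 34.1 and 21.4 CPM in Ler. SHN2, an AP2-type factor of the cutin pathway, had 0.045, 0.032 and 0 CPM in ful-1 and 2.01, 1.99 and 1.79 CPM in Ler.

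Several classes stayed near or below the shares over all genes, 5.12% higher and 8.26% lower. Of 168 cytochrome P450 genes 9 rose and 15 fell. Of 152 genes annotated as TIR-NBS-LRR or other disease resistance proteins, with a dirigent-like gene among them, 6 rose and 7 fell. Of 134 heat shock protein genes 5 rose and 7 fell. Library 3 lay above all Ler libraries in 5 of the 9, 3 of the 6 and 2 of the 5 that rose, and below all of them in 11 of the 15, 6 of the 7 and 4 of the 7 that fell. Of 22 circadian clock genes RVE1 was the 1 called, and fell, and of 42 lignin and secondary wall genes 1 rose and 2 fell. Auxin response genes of the Aux/IAA and GH3 families had 1 of 33 higher and 1 lower. The 19 tested pollen genes had a median log2 fold change of -0.647, and the lowest adjusted p among them over 5 libraries was 0.072 by edgeR, for the pollen tube factor MYB120. Without Ler library 2, 6 of them fell.

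MADS-domain proteins such as FUL bind the CArG-box, CC followed by 6 A or T bases and GG, which reads as the same pattern on both strands. The 300 bases before the annotated start of each tested protein-coding nuclear gene were searched in the TAIR10.1 assembly. An exact box was found in 31 of 1141 genes that rose over 5 libraries (2.72%), 67 of 1855 that fell (3.61%) and 670 of all 21870 (3.06%). With 1 mismatch allowed in the A/T stretch the shares were 7.62%, 11.6% and 9.25%. Promoters of the genes that rose had the higher A/T content, with a median of 70.0%, against 67.7% for genes that fell. Of 42 genes named above or by the same rule, 3 had an exact box, in capitals below with the box as the part that matters: SHP2 on chromosome 2, whose whole window (chr2:17819814-17820113, plus strand) is shown because it is a valve margin gene that rose, and TRX z and AT3G55710 on chromosome 3, both of which fell and whose windows hold part of a neighbouring gene, so that only 30 bases are shown.
SHP2: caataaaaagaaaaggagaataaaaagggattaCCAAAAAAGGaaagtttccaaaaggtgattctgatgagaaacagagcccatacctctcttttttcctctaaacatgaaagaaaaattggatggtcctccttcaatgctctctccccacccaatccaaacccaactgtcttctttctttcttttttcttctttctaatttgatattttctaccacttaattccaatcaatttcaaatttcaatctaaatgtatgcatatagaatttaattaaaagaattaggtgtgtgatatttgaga
TRX z: aaccataaacCCTTTATTGGtcttaatatg
AT3G55710: taaattttgaCCATAATAGGttgataatat
The box began 267 bases before the gene in SHP2, 183 in TRX z and 86 in AT3G55710. A match describes the letters of the window and says nothing of binding by FUL.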

How the data were processed

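RNA was measured in 3 ful-1 and 3 Ler pistil libraries. Per the submitters' processing notes the authors mapped reads to TAIR10 with STAR 2.7.0b and made counts per gene with featureCounts 1.6.0; the deposited table holds whole-number counts of 36917 gene identifiers. The labels' protocols name a stranded Illumina kit after mRNA enrichment and paired reads of 150 bases. For trimming and for reads with several positions, the step is not given in the sources used here. All 42 pairs of opposite-strand genes that overlap by 90% or more of both, with at least 100 counts, had counts within 10% of each other (median ratio 1.00), so the counts did not separate the strands.

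Symbols, biotypes, exonic lengths and coordinates came from the TAIR10.1 annotation, and sequences from its assembly. Of the 208 named genes, 27 overlap another gene by at least 10% of their exons, and 9 share a stretch of at least 100 bases at 95% identity with another gene (blastn 2.17.0).

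Genes were kept with filterByExpr, libraries scaled by TMM, and genotypes compared with the quasi-likelihood F test of edgeR 4.0.16 with Benjamini-Hochberg adjustment over all genes tested at 0.05, once over 6 libraries and once, with filter and scaling redone, without ful-1 library 3. The steps were tested on counts simulated with the same spread for both fits and, apart from the genes made to change, the same expected profile in every library. That spread lay near the one of the 5 libraries. The simulation therefore cannot speak for the fit over 6 libraries, where the biological coefficient of variation was 0.413. The SE printed beside a log2 fold change is that value over the root of its F statistic. CPM are scaled with the TMM factors of the 6 libraries. Since the columns are headed by group alone, libraries are numbered in table order. The promoter search and the library 3 ratios (log2 of CPM with 0.5 added) are descriptions. Other software was R 4.3.3 with DESeq2 1.42.0 and limma 3.58.1, and Python 3.11.15 with pandas 2.3.3, numpy 2.4.6 and, for plots, matplotlib 3.10.9.

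Gene lists were made by symbol or by annotated product, and lists and named genes were chosen with earlier results of these data known, so lists carry counts and medians but no test of their own. Named genes are FUL, the genes called over 6 libraries other than the 10 largest changes in each direction among those with a mean of 2 CPM or more in the higher group, the 8 moderate genes of lowest p in each direction, and up to 3 called members of each list with a log2 size of at most 2, or the 1 of lowest p where none was called. Alternatives were other size factors, DESeq2, other filters, a fit with the meristem libraries, omission of organelle genes, robust dispersion, stricter thresholds and omission of each library. The meristem libraries were otherwise not used.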

Additional observations from a re-analysis of the deposited data

How the results depend on the processing

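The number of genes called over 6 libraries was 44 and moved to 927 with DESeq2, 647 in one fit of all 12 libraries and 1 at an adjusted p of 0.01, and it stayed at 36 to 46 with DESeq2's size factors in edgeR, no filter, a stricter filter, organelle genes left out or robust dispersion. DESeq2 called all 44 in the same direction. Leaving out each library in turn gave 0 to 3221 calls, the highest without ful-1 library 3. Over 5 libraries 3221 genes were called. The count moved to 956 with a log2 size of at least 1 and to 990 at an adjusted p of 0.01, was 3165 to 4352 under the other fits of those libraries and 3024 in one fit with the meristem libraries, and ran from 528 to 3727 with each library left out. A fit that leaves 1 ful-1 library assumes that it varies like the Ler libraries. Genes called in both the 5-library fit and each of its alternatives had the same direction in both. The share of called genes that were higher was 38.3%. Under the alternatives it was lowest at an adjusted p of 0.01, with 25.6%, and without Ler library 1, with 25.9%. Of the 208 named genes 108 lost the call they had over 5 libraries without ful-1 library 1, 90 without ful-1 library 2, 70 without Ler library 1, 13 without Ler library 2 31 without Ler library 3 and 36 in the fit with the meristem libraries; for CRC, with -0.01 on the log2 scale and no call, the sign turned, and its value ran from -0.38 to 0.27. The cause was not tested. No paired analysis was possible because the columns of the count table carry no replicate numbers. Changes under about a doubling were called over 5 libraries and not over 6, so their size rests on 2 ful-1 libraries.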

Other observations

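Transcription factor families held genes in both directions. Of 105 tested MYB factors 13 rose and 5 fell over 5 libraries (12.4% and 4.76%, against 5.12% and 8.26% of all genes). Of 96 bHLH factors 10 rose and 14 fell (10.4% and 14.6%). MYB10 had 11.02, 13.3 and 90.7 CPM in ful-1 and 5.16, 5.20 and 4.51 CPM in Ler, and MYB86 had 1.46, 2.27 and 0.462 CPM in ful-1 and 6.15, 6.99 and 6.11 CPM in Ler. The bHLH genes AT3G61950 and AT4G01460 both fell, AT3G61950 with 9.31, 7.25 and 3.23 CPM in ful-1 and 25.6, 23.9 and 26.3 CPM in Ler, and AT4G01460 with 4.22, 3.83 and 4.39 CPM in ful-1 and 10.95, 10.8 and 10.6 CPM in Ler. In none of these genes did the groups overlap. Of the homeodomain-leucine zipper genes, HAT14 had 3.07, 4.15 and 2.54 CPM in ful-1 and 12.1, 11.3 and 13.2 CPM in Ler, and fell by 1.77 ± 0.17 on the log2 scale (SE, adjusted p = 0.0032 by edgeR). HAT22 had 42.6 and 48.2 CPM in ful-1 libraries 1 and 2, 15.7 CPM in library 3 and 19.5 to 22.8 CPM in Ler. MYB factors higher numbered 5 without ful-1 library 1, 4 without ful-1 library 2, 3 without Ler library 1 and 7 without Ler library 3, and those lower 1 without ful-1 library 1, ful-1 library 2 or Ler library 1. For bHLH factors that rose the counts were 2, 2, 2 and 4 in the same order, and 16 without Ler library 2. For those that fell they were 7 without ful-1 library 1, 7 without ful-1 library 2 and 8 without Ler library 1.

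Single genes of the cell wall and of hormone pathways moved beyond the lists described above. AT5G63180, a pectin lyase-like gene, had 40.7, 54.3 and 46.6 CPM in ful-1 and 9.87, 12.0 and 15.3 CPM in Ler, and rose by 1.93 ± 0.21 (SE, adjusted p = 0.0042 by edgeR). XTH6, an enzyme that cuts and rejoins xyloglucan, had 19.0, 25.6 and 13.6 CPM in ful-1 and 72.9, 59.0 and 62.1 CPM in Ler. The peroxidase PRXCB had 32.3, 31.4 and 12.8 CPM in ful-1 and 83.8, 101 and 76.3 CPM in Ler. The groups did not overlap in any of the 3. GASA6, a gibberellin-regulated peptide gene, had 16.5, 27.4 and 8.09 CPM in ful-1 and 6.24, 6.63 and 6.70 CPM in Ler. CRF3, a cytokinin response factor, had 1.03, 1.12 and 0.462 CPM in ful-1 and 3.44, 4.59 and 3.67 CPM in Ler, and its call was lost without ful-1 library 1. Of 18 genes of the style and transmitting tract 3 rose over 5 libraries, SHI, HEC3 and NGA2, and the count was 0 without ful-1 library 1, ful-1 library 2 or Ler library 1, 2 without Ler library 3 and 11 without Ler library 2. Library 3 lay above all Ler libraries in 1 of the 3, which made up 16.7% of the list, against 5.12% of all genes.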
